A study of Rattus norvegicus with 6 samples.

Results

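The mitochondrial carrier genes of the SLC25 family and the uncoupling protein genes were compared between H9c2 cells that had been given an LNA gapmer to Tug1, a long non-coding RNA, and cells given a control gapmer. Members were all genes of the count table whose symbol was Slc25a or Ucp followed by a number alone, 51 of 40456 genes, and 40 of them had enough counts to be tested among 14216 tested genes. H9c2 (2-1) is a single cardiomyoblast line from rat heart, listed in the labels with the genotype WT and the cell type cardiomyocyte. All 6 samples spent 5 days in medium with 1% serum and 1 µM retinoic acid, followed by 24 h of exposure to a gapmer at 25 nM. Gapmers of this kind are short antisense strands with locked nucleic acid (LNA) ends, and RNase H cuts the RNA paired with them. The control group (n = 3) received the negative control LNA and the knockdown group (n = 3) the Tug1 LNA. Each group used a single oligonucleotide, so effects of a sequence apart from its intended target cannot be told apart from effects of Tug1. The labels do not say whether replicates came from separate cultures, and p-values measure only the spread between these libraries. The oligonucleotides, shown because they are the only difference between the groups, were as follows, 5′ to 3′.
Tug1 gapmer: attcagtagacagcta
Negative control gapmer: gctcccttcaatccaa

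Mitochondrial carriers are nuclear-encoded proteins of one fold that sit, with few exceptions, in the inner mitochondrial membrane. Each exchanges or admits a small set of substrates, such as ADP and ATP, phosphate, citrate, amino acids, acylcarnitines, cofactors or iron, and so links the enzymes of the matrix with those of the cytosol. Uncoupling proteins belong to the same family, and the founding member dissipates the proton gradient as heat in brown fat. In heart and skeletal muscle the adenine nucleotide translocases and the phosphate carrier supply ATP synthase and export its product, and the carnitine carrier feeds fatty acid oxidation.

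Total counts ran from 12978548 to 13544337 per library, and expression is given as counts scaled to a common library size with TMM factors (CPM), in the order of replicates 1 to 3 throughout. A count of 0 allows a level of up to 3 counts, which was 0.217 to 0.232 CPM. Tug1 itself was at 54.7, 52.0 and 55.4 CPM with the control gapmer and 11.9, 11.2 and 12.5 CPM with the Tug1 gapmer, so the knockdown libraries held 22.0% of the control mean and the groups were far apart. Of 15 cardiomyocyte markers only 5 were tested, with Myh6, Myh7, Nkx2-5 and Nppa at or near 0 and Nppb at 0 in every library, so the labelled cell type rests on few of its markers. Of the tested ones Tnnt2, Actc1 and Myl2 rose, with log2 fold changes of 0.24, 0.97 and 1.23, Pln fell (-0.68) and Gata4 did not pass (-0.26). Myl2 had 8, 8 and 5 counts in the controls and 25, 14 and 13 counts after knockdown. No control library reached the filter, so Myl2 was tested through the knockdown group alone. Its rise was partly set by the filter. The summed cardiomyocyte markers were at 383 to 413 CPM in the controls and 432 to 486 CPM after knockdown, without overlap and mostly from Tnnt2. Of 10 skeletal myoblast markers 9 were tested, 8 of them higher and 1 lower, where 30.8% of all tested genes were called higher and 30.9% lower, and their summed level was 928 to 934 CPM in the controls and 1359 to 1441 CPM after knockdown. Summed fibroblast markers, of which 7 of 8 were tested, were at 43814 to 45162 and 41192 to 43997 CPM, mostly from Col1a1 and Col1a2. Of these 7, 28.6% were called higher, against 30.8% of all tested genes, and 42.9% lower, against 30.9%. Dcn (0.57) and Col3a1 (0.47) rose, Thy1 (-0.40), Postn (-0.47) and Col1a1 (-0.23) fell, and Col1a2 and Lum did not pass. Summed endothelial markers were at 3.02 to 4.47 and 2.81 to 3.91 CPM and blood cell markers at 3.22 to 5.42 and 6.74 to 9.02 CPM, with Ptprc at 0 in every library and most of the latter from Cd68, the only one of 5 blood cell markers that was tested. The part of the muscle markers' rise in the carrier results was not tested. In such bulk libraries fewer cells that express a gene and less of its RNA per cell cannot be told apart.

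After knockdown 12 carrier genes rose and 14 fell among the 40 tested, and called changes ran in both directions within several substrate groups. The furthest falls at well-measured levels were those of the calcium-gated carrier Slc25a24, the uncoupling protein relative Slc25a30 and the iron carrier Slc25a37. Rises included those of the oxoglutarate carrier Slc25a11, the outer membrane protein Slc25a46 and the carnitine carrier Slc25a20, and went furthest for Slc25a35 and Ucp3, both of few counts. The tested carriers were called at a share of 65.0%, against 61.7% of all tested genes at the same threshold, an adjusted p under 0.05 in edgeR's quasi-likelihood test. Calls upward made up 30.0% of the carriers against 30.8% of all tested genes, and calls downward 35.0% against 30.9%. These shares lie near the background. The median log2 fold change of the tested carriers was -0.036 and that of all tested genes 0.0043, and the median absolute value was 0.29 against 0.34. Called changes of 1 or more on the log2 scale, in either direction, were found for 5 carriers, against 9.8% of all tested genes. The carriers that rose spanned log2 fold changes from 0.18 to 1.26, and those that fell from -0.14 to -1.41. The lowest value is that of Slc25a53, which passed the filter on low counts through the control group alone. Without Slc25a53, 13 carriers fell, 4 had called changes of 1 or more, and the lowest value was -1.36.

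**Figure D1:**
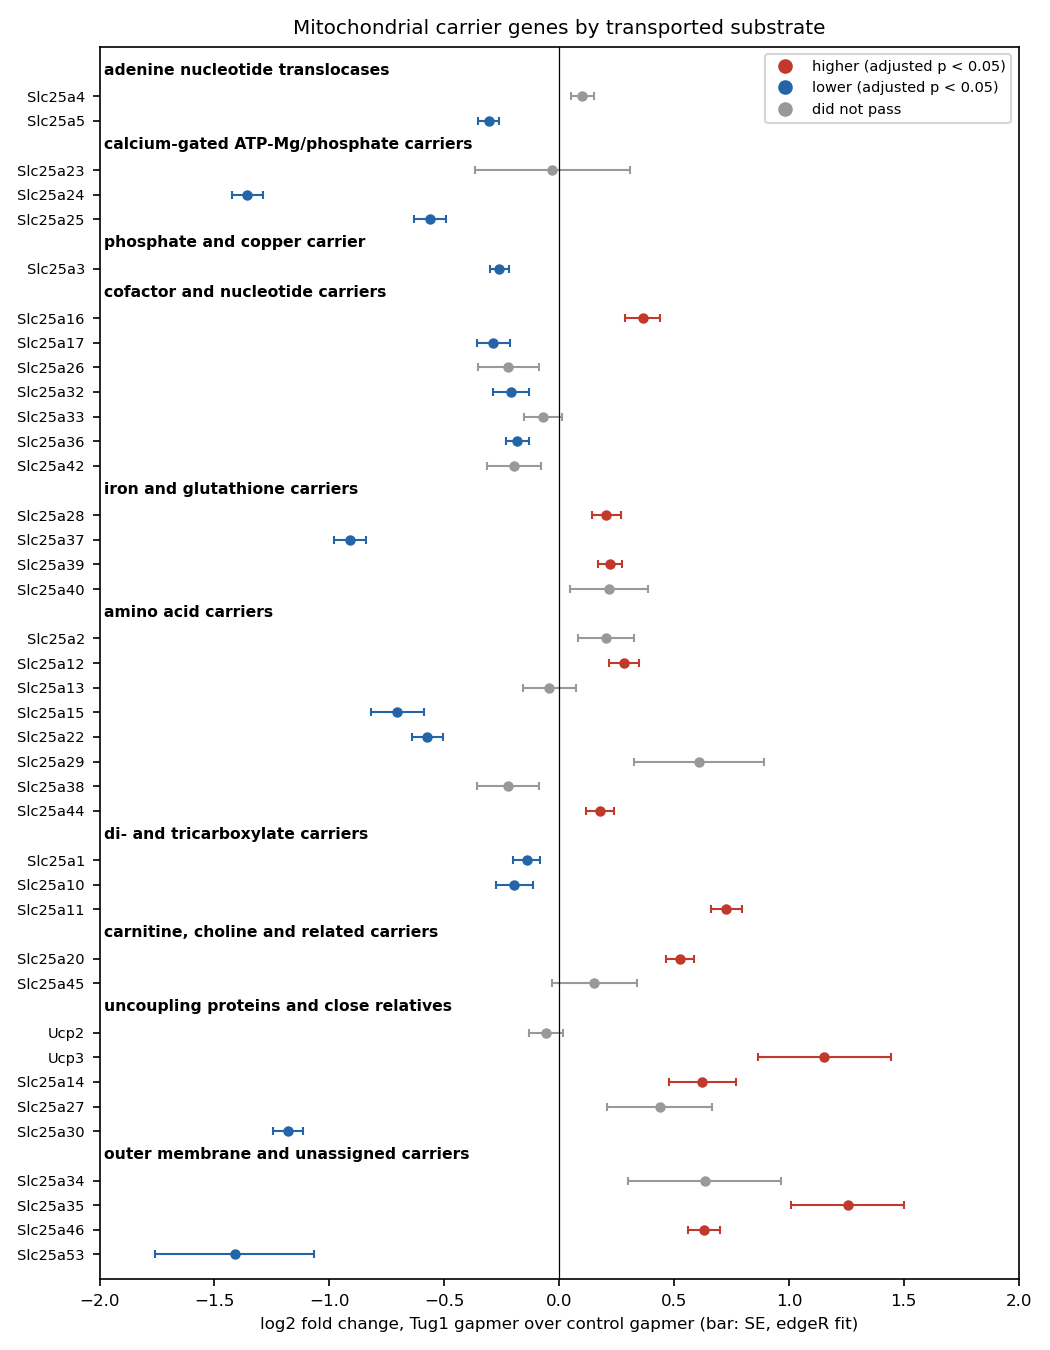
Log2 fold changes of 39 of the 40 tested carrier genes, Tug1 gapmer over control gapmer, grouped by substrate. Points are edgeR estimates and bars their standard errors; colours mark 11 genes that rose, the 14 that fell and the 14 that did not pass. Points to the left and right of 0 occur in most groups.

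The 3 values of each group did not overlap for 26 of the 40 tested carriers, a share that equals that of the called ones and stands beside 65.6% of all tested genes. The 2 sets were not the same. Slc25a32, Slc25a1 and Slc25a10 were called lower although their groups overlapped, and Slc25a2, Slc25a29 and Slc25a34 were separated between groups without passing the test. The summed level of all 51 carriers was 2795, 2835 and 2769 CPM with the control gapmer and 2626, 2614 and 2568 CPM with the Tug1 gapmer. The groups were apart in this sum, lower after knockdown, and Slc25a3, Slc25a4 and Slc25a5 had the most counts of its members. The sum depends on the TMM factors, which were 0.979 to 0.986 in the controls and 1.01 to 1.02 after knockdown. As a share of all counts, without these factors, the carriers held 0.275%, 0.277% and 0.271% with the control gapmer. With the Tug1 gapmer they held 0.267%, 0.264% and 0.262%.

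Carriers that move adenine nucleotides and phosphate were compared first, since their work is ATP supply to the cytosol. Slc25a4 encodes the translocase that prevails in heart and muscle, and Slc25a5 one that prevails in dividing cells. The expression of Slc25a4 was 451, 460.4 and 499.9 CPM with the control gapmer and 541, 484 and 488 CPM with the Tug1 gapmer. The groups overlapped, with knockdown replicate 1 the highest library, and the log2 fold change of 0.10 (edgeR, SE 0.0499, adjusted p 0.0869) did not pass. It passed as higher without control replicate 3 (0.15), without knockdown replicate 2 (0.13), with library totals in place of TMM (0.15) and with an offset for gene length (0.26), but was at 0.049 without knockdown replicate 1. Slc25a5 had 270.1, 259 and 268 CPM with the control gapmer and 223, 215 and 207 CPM with the Tug1 gapmer. All knockdown libraries lay below all control libraries, and Slc25a5 fell, with a log2 fold change of -0.31 (edgeR, SE 0.0459, adjusted p 4.36e-06). With the length offset, which removes from each library a smooth trend with genomic span, its value was -0.13. The phosphate carrier gene Slc25a3, whose product also brings copper into the matrix, was at 639.8, 644 and 636 CPM with the control gapmer and 539, 535 and 529 CPM with the Tug1 gapmer. The spread within each group was under 1% of the mean and the groups were apart, with a log2 fold change of -0.26 (edgeR, SE 0.0403, adjusted p 6.84e-06), or -0.15 with the length offset. Slc25a6 and Slc25a31, which encode further translocases, had at most 4 and 2 counts in a library and were not tested.

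Reads of these genes can be shared with processed copies. The RefSeq gene table of assembly GRCr8 lists 31 pseudogenes named after members, 9 of them for Slc25a5, 8 for Slc25a39 and 2 for Slc25a3, and 0 of the 31 have an entry of that name in the count table. How reads that match several places were counted is not given in the sources used here, so the levels of Slc25a5, Slc25a39 and Slc25a3 are uncertain to that extent.

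The calcium-gated carriers, which exchange ATP-Mg for phosphate when calcium outside the inner membrane rises and so set the adenine nucleotide pool of the matrix, held the called carrier with the smallest p. Slc25a24 had 62.6, 64.6 and 59.9 CPM with the control gapmer and 24.2, 23.6 and 25.2 CPM with the Tug1 gapmer. The knockdown libraries clustered tightly at 39.0% of the control level, far under every control library. Its log2 fold change was -1.36 (edgeR, SE 0.0670, adjusted p 9.95e-14) and stayed between -1.41 and -1.30 over all 16 alternatives. Slc25a25, the second gene of the group, had 53.5, 54.3 and 51.5 CPM with the control gapmer and 32.3, 38.5 and 37.2 CPM with the Tug1 gapmer. Again the groups were apart, and Slc25a25 fell, with a log2 fold change of -0.56 (edgeR, SE 0.0703, adjusted p 3.38e-07). Slc25a23 was near 1 CPM, at 0.920, 1.32 and 1.47 CPM in the controls against 0.797, 1.70 and 1.13 CPM after knockdown, and its log2 fold change of -0.029 (edgeR, SE 0.338, adjusted p 0.947) did not pass. The sign for Slc25a23 turned under 7 alternatives. Slc25a41, a relative listed with this group whether or not calcium gates it, had too few counts to test. These were 7, 2 and 0 counts in the controls and 0, 0 and 0 counts after knockdown. Along the genome Slc25a24 shares part of its span, on the same strand, with Slc25a54, which had at most 2 counts in a library.

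Of 4 iron and glutathione carriers, all tested, 2 rose, 1 fell and 1 did not pass. Among all tested genes 30.8% rose and 30.9% fell. Slc25a37 and Slc25a28 encode mitoferrins, which bring iron into the matrix for heme and iron-sulfur cluster synthesis. Slc25a37 had 63.3, 61.8 and 62.5 CPM with the control gapmer and 31.7, 30.9 and 37.3 CPM with the Tug1 gapmer. Every knockdown library lay well under every control library, at 53.3% of the control mean, with a log2 fold change of -0.91 (edgeR, SE 0.0699, adjusted p 1.35e-10). Slc25a28 stood at 55.3, 57.2 and 49.8 CPM with the control gapmer and 59.3, 63.6 and 64.2 CPM with the Tug1 gapmer. Here the knockdown libraries were the higher ones, though by a small margin, and Slc25a28 rose by a log2 fold change of 0.20 (edgeR, SE 0.0634, adjusted p 0.00757). Without control replicate 3, the lowest control, that value was 0.15 (edgeR adjusted p 0.0539) and did not pass. Slc25a39, a glutathione carrier, had 134, 142 and 124 CPM in the controls against 151, 159.9 and 155 CPM after knockdown. The groups were separated, and Slc25a39 rose by a log2 fold change of 0.22 (edgeR, SE 0.0531, adjusted p 0.000948), which was 0.36 with the length offset. Its paralog Slc25a40 was at 5.91, 4.57 and 5.24 CPM in the controls against 6.31, 4.88 and 7.10 CPM after knockdown, and its log2 fold change of 0.22 (edgeR, SE 0.170, adjusted p 0.276) did not pass. It ran from 0.047 to 0.36 over the alternatives.

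Of 8 tested amino acid carriers, 2 rose (25%, against 30.8% of all tested genes), 2 fell (25%, against 30.9%) and 4 did not pass. The mitochondrial glutamate carrier gene Slc25a22 had 93.0, 94.5 and 78.6 CPM with the control gapmer and 55.9, 59.8 and 63.1 CPM with the Tug1 gapmer. Control replicate 3 was the lowest control but still above every knockdown library, and Slc25a22 fell, with a log2 fold change of -0.57 (edgeR, SE 0.0681, adjusted p 1.47e-07). Slc25a15, whose product exchanges ornithine for citrulline in the urea cycle, had 14.5, 16.02 and 16.3 CPM with the control gapmer and 8.55, 9.39 and 10.8 CPM with the Tug1 gapmer. The groups did not overlap, and its log2 fold change was -0.70 (edgeR, SE 0.114, adjusted p 1.18e-05). Slc25a44, a carrier of branched-chain amino acids, was at 56.7, 61.5 and 59.2 CPM with the control gapmer and 70.7, 66.6 and 63.3 CPM with the Tug1 gapmer. The groups were narrowly apart. Slc25a44 rose by a log2 fold change of 0.18 (edgeR, SE 0.0603, adjusted p 0.0136), and did not pass without control replicate 1 (0.15) or without knockdown replicate 1 (0.14).

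The aspartate and glutamate carriers Slc25a12 and Slc25a13 are the calcium-regulated step of the malate-aspartate shuttle. Slc25a12, which prevails in muscle and brain, rose by a log2 fold change of 0.28 (edgeR, SE 0.0652, adjusted p 0.000635), with 40.1, 37.8 and 37.2 CPM in the controls against 48.1, 45.3 and 46.6 CPM after knockdown. Both have long genomic spans, and with the length offset Slc25a12 was at 0.10 and did not pass. Slc25a13 had a log2 fold change of -0.042 (edgeR, SE 0.114, adjusted p 0.765) and did not pass. It turned sign under 5 alternatives, and with the length offset it passed as lower (-0.34). The remaining amino acid carriers did not pass. Slc25a38, which supplies glycine for heme synthesis, had a log2 fold change of -0.22 and passed as lower without knockdown replicate 2 (-0.34), but was at -0.040 without control replicate 2 and -0.12 without knockdown replicate 1. Slc25a29, a carrier of basic amino acids, had 1.24 to 2.74 CPM over the libraries and a log2 fold change of 0.61. It passed as higher without knockdown replicate 3 (0.78), with library totals (0.66) and with the length offset (0.68), but was at 0.38 without knockdown replicate 2. The log2 fold change of Slc25a2, an ornithine carrier, was 0.20, or 0.38 and called with the length offset. The whole span of Slc25a2 lies inside that of Taf7 on the same strand in the gene table, so its counts are uncertain. Slc25a18, a second glutamate carrier, had at most 4 counts in a library.

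The di- and tricarboxylate carriers hand citrate, malate and oxoglutarate across the membrane. Slc25a11, the oxoglutarate-malate exchanger of the malate-aspartate shuttle, had 31.0, 33.1 and 34.3 CPM with the control gapmer and 55.0, 52.1 and 56.0 CPM with the Tug1 gapmer. All knockdown libraries were far above all controls, and Slc25a11 rose by a log2 fold change of 0.73 (edgeR, SE 0.0666, adjusted p 2.44e-09), staying between 0.69 and 0.91 over the alternatives. Slc25a1, which exports citrate for lipid synthesis, was at 147, 162 and 142 CPM with the control gapmer and 136, 148 and 126 CPM with the Tug1 gapmer. The groups overlapped, and the log2 fold change of -0.14 (edgeR, SE 0.0601, adjusted p 0.0453) passed narrowly. It was -0.083 without knockdown replicate 3 and did not pass, nor did it without any one of control replicates 1 and 2 and knockdown replicate 1 (-0.16, -0.088 and -0.13). With the length offset its sign turned, at 0.039. The dicarboxylate carrier gene Slc25a10 had a log2 fold change of -0.20 (edgeR, SE 0.0801, adjusted p 0.0386), and was at -0.11 without knockdown replicate 3. It was at -0.18 and -0.18 without control replicates 1 and 2 and at -0.20 without knockdown replicate 1, and passed in none of these 4. With the length offset Slc25a10 was at -0.087 and did not pass. Slc25a21, the oxoadipate carrier, had 1 count in all.

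Slc25a20 encodes the carrier that exchanges acylcarnitines for carnitine, by which long-chain fatty acids reach the matrix. Its expression was 49.0, 47.3 and 53.3 CPM with the control gapmer and 69.3, 75.2 and 71.1 CPM with the Tug1 gapmer. Every knockdown library exceeded every control, and Slc25a20 rose by a log2 fold change of 0.53 (edgeR, SE 0.0615, adjusted p 1.15e-07), between 0.49 and 0.58 over the alternatives. Slc25a45, a related carrier, was at 3.91, 5.11 and 4.09 CPM in the controls against 3.84, 5.33 and 5.44 CPM after knockdown. Its groups overlapped and its log2 fold change of 0.15 (edgeR, SE 0.186, adjusted p 0.490) did not pass. Slc25a47 was not tested, with 2, 1 and 3 counts in the controls and 10, 6 and 13 counts after knockdown; no control library exceeded that limit of 3 counts, so no fold is given. Slc25a48 had at most 6 counts in a library.

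**Figure D2:**
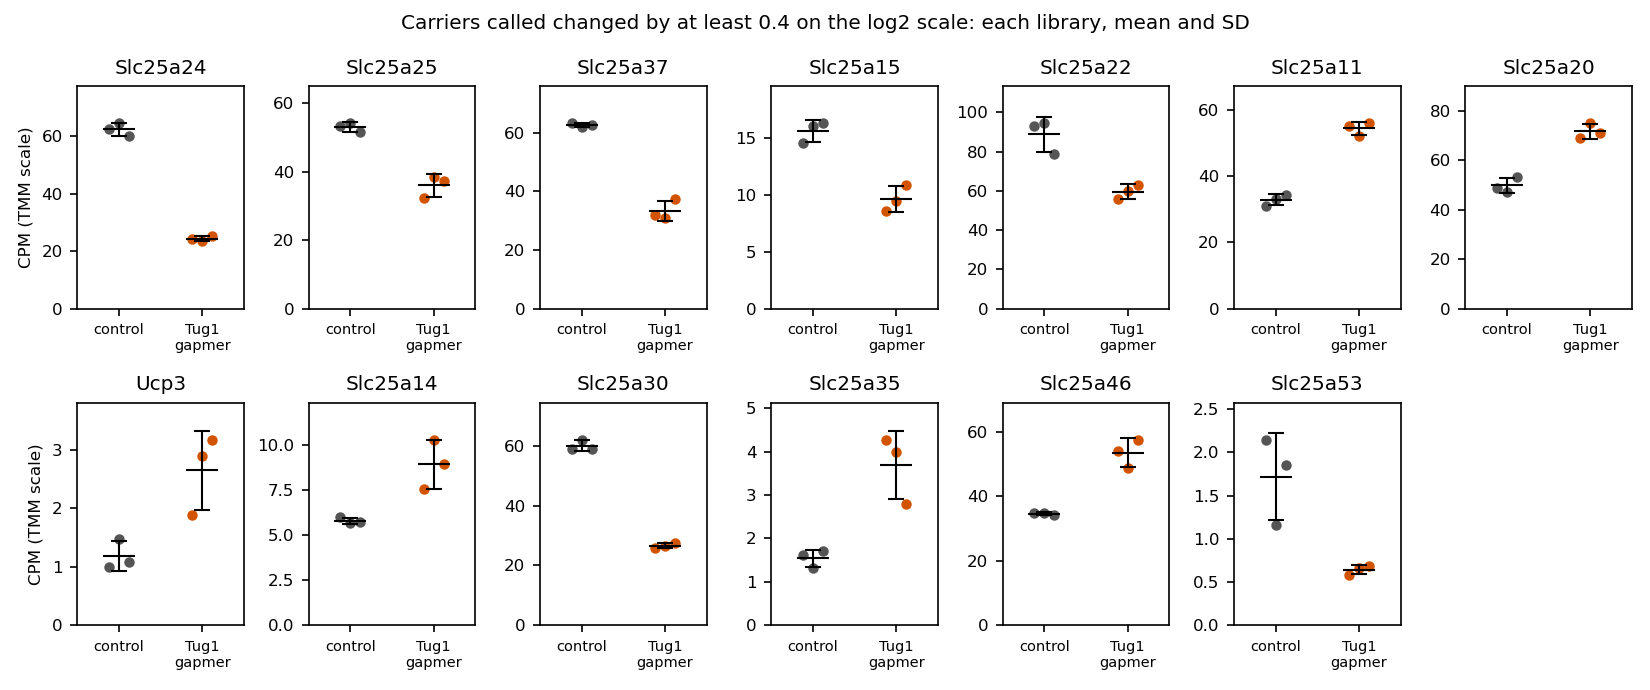
Expression in each library, in CPM on the TMM scale, of 13 of the 14 carriers called with a change of 0.4 or more on the log2 scale; points are libraries, the long bar is the mean and the error bar the SD (n = 3). In all 13 the control and knockdown libraries are apart, 6 higher and 7 lower after knockdown, beside 65.6% of all tested genes. The 13 were chosen by their call and size of change, so their separation was partly set by that choice. Slc25a53 among them passed the filter through the control group alone. Each axis starts at 0.

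Promoter sequences are shown for 4 of the carriers above, from RefSeq, build GRCr8, 250 bases before to 50 after the annotated start: Slc25a24 and Slc25a25, which fell and share a substrate, and Slc25a11 and Slc25a20, which rose. A promoter was found for 43 of the 51 members. Members with no entry included Slc25a26, Slc25a30, Slc25a32, Slc25a36, Slc25a37, Slc25a46 and Slc25a52. Capitals mark matches, on either strand, to 7 short motifs, namely the palindromic NRF1 site, the ERR half-site with its extension (TCAAGGTCA), the cAMP response element (TGACGTCA), the ETS site (CCGGAAG), the E-box (CACGTG), the CCAAT box (CCAAT) and the GC box (GGGCGG). No motif contains another. Slc25a24 lies at chr2:199449175-199449474 on the plus strand, Slc25a25 at chr3:36116532-36116831 on the minus strand, Slc25a11 at chr10:55859011-55859310 on the minus strand and Slc25a20 at chr8:118243323-118243622 on the plus strand.
Slc25a24: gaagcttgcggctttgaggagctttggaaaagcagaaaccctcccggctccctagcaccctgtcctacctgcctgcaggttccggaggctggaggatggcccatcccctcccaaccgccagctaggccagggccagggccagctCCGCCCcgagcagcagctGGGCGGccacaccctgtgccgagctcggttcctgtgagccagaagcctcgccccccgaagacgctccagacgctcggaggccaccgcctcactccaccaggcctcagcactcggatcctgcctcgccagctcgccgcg
Slc25a25: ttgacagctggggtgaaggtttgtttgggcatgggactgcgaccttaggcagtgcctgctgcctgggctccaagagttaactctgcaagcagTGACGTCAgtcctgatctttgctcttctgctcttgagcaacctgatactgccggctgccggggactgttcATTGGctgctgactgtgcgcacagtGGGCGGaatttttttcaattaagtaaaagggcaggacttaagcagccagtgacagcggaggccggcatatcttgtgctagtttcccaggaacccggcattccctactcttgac
Slc25a11: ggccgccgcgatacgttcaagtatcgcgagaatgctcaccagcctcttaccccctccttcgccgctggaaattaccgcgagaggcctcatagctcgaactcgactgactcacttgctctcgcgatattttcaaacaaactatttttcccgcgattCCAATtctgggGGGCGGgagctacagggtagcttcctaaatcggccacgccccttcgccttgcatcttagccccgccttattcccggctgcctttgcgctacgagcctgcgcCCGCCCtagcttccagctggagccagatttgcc
Slc25a20: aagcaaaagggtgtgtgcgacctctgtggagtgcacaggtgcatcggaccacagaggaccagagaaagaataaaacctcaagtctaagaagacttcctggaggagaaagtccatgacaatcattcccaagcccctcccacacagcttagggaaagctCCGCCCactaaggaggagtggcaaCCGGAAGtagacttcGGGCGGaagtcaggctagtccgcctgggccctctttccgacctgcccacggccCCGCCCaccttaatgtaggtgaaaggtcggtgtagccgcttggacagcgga

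These 4 windows share the GC box. The CCAAT box was in those of Slc25a25 and Slc25a11, the cAMP response element in that of Slc25a25 and the ETS site in that of Slc25a20. The GC box was in 62.79% of the 43 carrier promoters and in 33.06% of all 33469 promoters of the table. Each carrier entered with a single promoter, while the 33469 hold every distinct start of the table. Comparisons with all promoters, here and below, are thus between sets that were not counted alike. Carrier promoters had a median GC content of 58.3% against 51.7% for all. Among the 25 tested carriers with a GC box, 6 were called higher and 9 lower, where 30.8% of all tested genes were called higher and 30.9% lower. The ETS site was in 16.28% of carrier promoters against 8.75% of all, with 2 called higher and 2 lower of 6 tested. The CCAAT box was in 48.84% against 37.49%, with 4 called higher and 5 lower of 18 tested. The cAMP response element was in 2 carrier promoters (4.65%), Slc25a25 and Slc25a33, against 1.83% of all, and the E-box in 3 (6.98%) against 6.42%. The NRF1 site was in 0 of the 43 carrier promoters against 0.852% of all and the ERR half-site in 0 against 0.433%. A match is a run of letters and not a binding site.

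Carriers of cofactors and nucleotides were called in 5 of 8 tested cases, 2 higher and 3 lower. That share of 62.5% lies near the 61.7% of all tested genes, of which 30.8% were called higher and 30.9% lower. Slc25a16, assigned to coenzyme A transport from its yeast relative, was at 43.7, 37.9 and 43.9 CPM with the control gapmer and 59.9, 49.3 and 52.3 CPM with the Tug1 gapmer. It was higher in every knockdown library than in any control, with a log2 fold change of 0.36 (edgeR, SE 0.0759, adjusted p 0.000239). The pyrimidine nucleotide carrier gene Slc25a36 was at 144, 142 and 134 CPM with the control gapmer and 119.9, 125 and 125 CPM with the Tug1 gapmer. Although the shift was small, no library overlapped, and Slc25a36 fell, with a log2 fold change of -0.18 (edgeR, SE 0.0503, adjusted p 0.00328). Slc25a33, the other pyrimidine nucleotide carrier, had a log2 fold change of -0.069 and did not pass.

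Slc25a17, a peroxisomal member of the family that carries coenzyme A, FAD and NAD, had separated groups and fell with a log2 fold change of -0.29 (edgeR, SE 0.0717, adjusted p 0.00140). Slc25a32, which brings folate and FAD into the matrix, had overlapping groups and a log2 fold change of -0.21 (edgeR, SE 0.0799, adjusted p 0.0271). It did not pass without control replicate 1 (-0.18), control replicate 3 (-0.16), knockdown replicate 1 (-0.20) or knockdown replicate 3 (-0.16). Slc25a26, the S-adenosylmethionine carrier gene, had a log2 fold change of -0.22 and passed as lower only with the length offset (-0.41), alone or with the replicate block. Without knockdown replicate 3 it was -0.13. Slc25a42, a coenzyme A carrier, had a log2 fold change of -0.20 and passed as lower without knockdown replicate 2 (-0.30) and with the length offset and replicate block together (-0.25). The span of Slc25a42 shares 9741 bases with that of Tmem161a, which had means of 28.2 CPM in the controls and 28.7 CPM after knockdown. The counts of Slc25a42 are uncertain to that extent. Slc25a52 had 1 count in all, and Slc25a51, the NAD carrier gene, was not analysed here.

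Uncoupling proteins and their nearest relatives moved in both directions. Ucp2, which is widely expressed, was at 109, 126 and 92.5 CPM with the control gapmer and 102, 109 and 105 CPM with the Tug1 gapmer. The control libraries spanned the knockdown ones, and the log2 fold change of -0.056 (edgeR, SE 0.0747, adjusted p 0.534) did not pass. The value was 0.060 without control replicate 2, the highest library, and -0.16, called lower, without control replicate 3, the lowest. Ucp3, the form of skeletal muscle, had 13, 19 and 14 counts in the controls and 26, 39 and 42 counts after knockdown. On the CPM scale these were 0.997, 1.47 and 1.08 CPM with the control gapmer and 1.88, 2.88 and 3.17 CPM with the Tug1 gapmer. Each knockdown library was above each control, and Ucp3 rose by a log2 fold change of 1.15 (edgeR, SE 0.288, adjusted p 0.00140) at a level where counting error is large. Ucp1, the form of brown fat, had 3, 0 and 0 counts in the controls and 4, 5 and 4 counts after knockdown and was not tested.

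Slc25a30, a relative of the uncoupling proteins first described in kidney, had 59.2, 62.2 and 59.2 CPM with the control gapmer and 25.8, 26.6 and 27.4 CPM with the Tug1 gapmer. The knockdown libraries lay at 44.2% of the control mean with a narrow spread, and its log2 fold change was -1.18 (edgeR, SE 0.0657, adjusted p 6.84e-13), between -1.20 and -1.13 over the alternatives. Slc25a14, a relative known from brain, was at 5.98, 5.65 and 5.71 CPM with the control gapmer and 7.54, 10.3 and 8.91 CPM with the Tug1 gapmer. It moved the other way, with all knockdown libraries above the controls and a log2 fold change of 0.62 (edgeR, SE 0.146, adjusted p 0.000781). The span of Slc25a14 shares 31 bases with that of Zfp280c, which was at a log2 fold change of -1.03. Slc25a27, also known from brain, was at 2.91, 2.71 and 1.85 CPM in the controls against 2.75, 3.62 and 3.78 CPM after knockdown. These overlapped, and the log2 fold change of 0.44 (edgeR, SE 0.228, adjusted p 0.101) did not pass, although it did without knockdown replicate 1 (0.57). Without control replicate 3 it was 0.27.

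Among outer membrane and unassigned carriers, Slc25a46 sits in the outer membrane and takes part in mitochondrial fusion and fission. It had 34.8, 34.8 and 34.2 CPM with the control gapmer and 54.1, 48.7 and 57.5 CPM with the Tug1 gapmer. Knockdown libraries were all above the controls, and Slc25a46 rose by a log2 fold change of 0.63 (edgeR, SE 0.0697, adjusted p 5.29e-08). Its span shares 827 bases with that of Sap130, which rose by a log2 fold change of 0.30, and the use of strand in counting is not given in the sources used here. Slc25a35, of uncertain substrate, was at 1.61, 1.32 and 1.70 CPM with the control gapmer and 4.28, 3.99 and 2.79 CPM with the Tug1 gapmer. These low values did not overlap, and Slc25a35 rose by a log2 fold change of 1.26 (edgeR, SE 0.246, adjusted p 0.000123). Its span shares 35 bases with that of Rangrf, which was at a log2 fold change of -0.46. Slc25a53 had 2.15, 1.16 and 1.85 CPM with the control gapmer and 0.580, 0.666 and 0.680 CPM with the Tug1 gapmer. It fell with a log2 fold change of -1.41 (edgeR, SE 0.346, adjusted p 0.00118), but it was tested through the control group alone, since 0 of its knockdown libraries reached the filter, so its difference was partly set by the filter. Slc25a34, near 1 CPM, had a log2 fold change of 0.63 (edgeR, SE 0.334, adjusted p 0.105), and it passed only with the length offset (0.78) and was at 0.35 without control replicate 2. Slc25a43 and Slc25a54 had at most 7 and 2 counts in a library.

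Pairs of related carriers, not all of like substrate, were then set against each other within each library. The measure was the log2 ratio of their CPM values, which is unaffected by library scaling except through a pseudocount of 0.01 CPM. Of 11 pairs, which were chosen with results of these data known, 8 were apart in all libraries, beside 65.6% of single tested genes. The exact two-sided permutation test over 3 against 3 libraries cannot give a p under 0.1, and these 8 pairs had that p (0.138 after adjustment over the 11 pairs). The ratio of Slc25a4 to Slc25a5 was 0.74, 0.83 and 0.90 with the control gapmer and 1.28, 1.17 and 1.24 with the Tug1 gapmer. It was higher in each knockdown library than in any control, by a mean of 0.41. For the mitoferrins the ratio of Slc25a28 to Slc25a37 was -0.19, -0.11 and -0.33 with the control gapmer and 0.90, 1.04 and 0.78 with the Tug1 gapmer. The groups were far apart, with a mean shift of 1.12. Within the calcium-gated group the ratio of Slc25a24 to Slc25a25 shifted by -0.79, and that of Slc25a23 to Slc25a24 by 1.29.

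The widest shift was that of Slc25a14 to Slc25a30, by 1.79. Ratios of Slc25a10 to Slc25a11 shifted by -0.93, those of Ucp2 to Ucp3 by -1.19 and those of Slc25a33 to Slc25a36 by 0.12. This last pair was barely apart, with control replicate 2 at -2.19 and knockdown replicate 3 at -2.18, and its shift ran from 0.062 without control replicate 3 to 0.15 without control replicate 2. The ratio of Slc25a12 to Slc25a13 differed by 0.33 with overlapping libraries (exact permutation p = 0.2, 0.244 adjusted). Slc25a39 to Slc25a40 (0.015, exact permutation p = 0.9) and Slc25a20 to Slc25a29 (-0.049, exact permutation p = 1) overlapped widely, and the rare partner in each pair limits what can be seen.

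**Figure D3:**
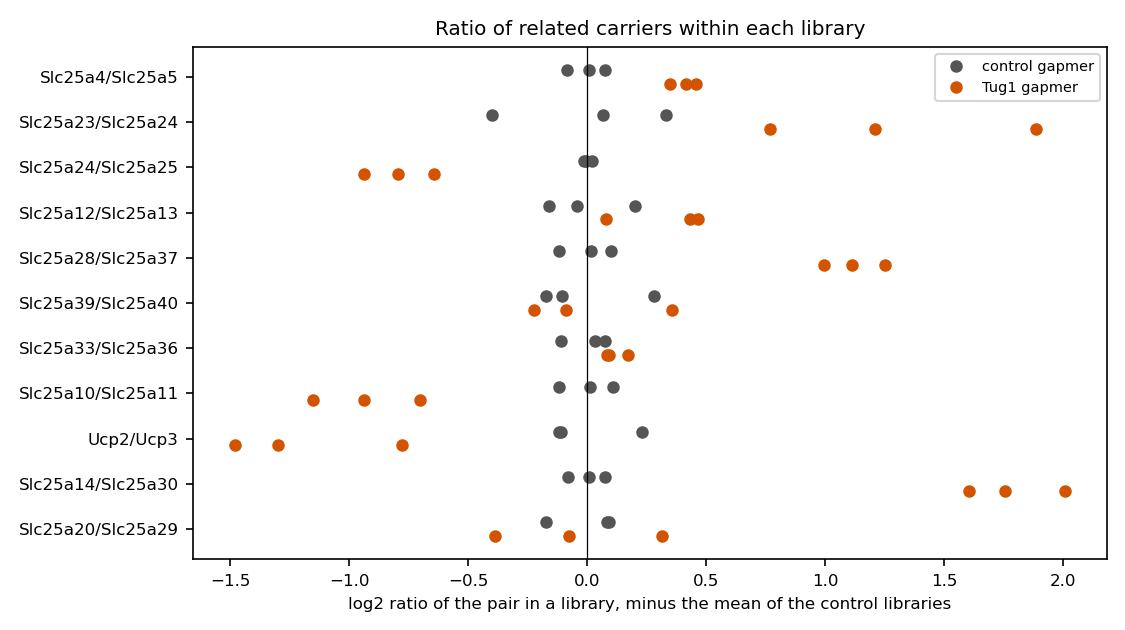
Log2 ratio of 2 related carriers in each library, as the difference from the mean of the 3 control libraries; grey points are control and orange points Tug1 gapmer libraries. In 8 of 11 pairs the knockdown libraries lie wholly on one side of the controls, furthest for Slc25a14 to Slc25a30 at a mean of 1.79.

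Other genes of the carriers' pathway came from lists written from general knowledge. Carrier precursors reach the inner membrane through the receptor Tomm70, the small Tim chaperones of the intermembrane space and the Tim22 insertase. Of 13 genes for this route, all tested, 1 rose (7.69%, against 30.8% of all tested genes) and 6 fell (46.2%, against 30.9%). Timm8a1, a small Tim chaperone, was at 51.3% of its control level, with a log2 fold change of -0.96 (edgeR, SE 0.0871, adjusted p 2.02e-09). Tomm70 fell, with a log2 fold change of -0.39 (edgeR, SE 0.0556, adjusted p 1.82e-06), while Tomm20, a receptor for presequence proteins, rose by 0.33 (edgeR, SE 0.0505, adjusted p 5.42e-06). The insertase gene Timm22 (-0.050) did not pass. The share called on this list was 53.8% against 61.7% of all tested genes, and its median log2 fold change was -0.17 against 0.0043.

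Of 5 porin and outer membrane relatives, 4 rose and 0 fell, against 30.8% of all tested genes that rose. Porins let metabolites pass the outer membrane before a carrier takes them up. Vdac1 rose by a log2 fold change of 0.56 (edgeR, SE 0.0533, adjusted p 4.28e-09) and Vdac3 by 0.19. Mtch1, a divergent outer membrane member of the carrier family, rose by 0.28 (edgeR, SE 0.0507, adjusted p 4.47e-05), and its relative Mtch2 was at 0.10 and did not pass (edgeR adjusted p 0.0559). Of 17 other mitochondrial transporters, 6 rose (35.3%, against 30.8% of all tested genes) and 4 fell (23.5%, against 30.9%), and the share called of 58.8% lies near the 61.7% of all. The calcium channel gene Mcu (0.76, or 0.48 with the length offset) and the ion exchanger gene Letm1 (0.61) rose, and Tspo, an outer membrane protein held by that list, fell, with a log2 fold change of -0.59 (edgeR, SE 0.0760, adjusted p 5.33e-07). The pyruvate carrier genes Mpc1 (0.15) and Mpc2 (-0.11) did not pass.

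Of 23 tested enzymes that make or use carried substrates, 9 rose (39.1%, against 30.8% of all tested genes) and 5 fell (21.7%, against 30.9%). The share called was 60.9%, against 61.7% of all tested genes. Acly, which splits the citrate that Slc25a1 exports, rose from 411 ± 17.7 CPM to 769.6 ± 25.8 CPM (SD, n = 3), with 0.91 (edgeR, SE 0.0448, adjusted p 9.95e-14) as its log2 fold change. Glud1, the glutamate dehydrogenase that uses glutamate brought in by Slc25a22, fell, with a log2 fold change of -0.49 (edgeR, SE 0.0443, adjusted p 1.91e-09), beside the fall of Slc25a22 itself. For the malate-aspartate shuttle, Got2 (0.20) and Mdh1 (0.13) rose with Slc25a11, while Got1 (0.12) and Mdh2 (0.028) did not pass. On the carnitine route Cpt1a rose by 0.20 beside Slc25a20, while Cpt1b (0.17), Cpt2 (0.18) and Crat (0.011) did not pass.

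Over 16 alternative ways of processing, 20 of the 26 called carriers kept their direction and their call. The 6 others were Slc25a1, Slc25a10, Slc25a12, Slc25a28, Slc25a32 and Slc25a44, of which Slc25a12 had the largest log2 fold change, 0.28. Of the 14 carriers that did not pass, 3 (Slc25a33, Slc25a40 and Slc25a45) changed neither sign nor call in any alternative. The count of called carriers ran from 22 to 29.

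**Figure D4:**
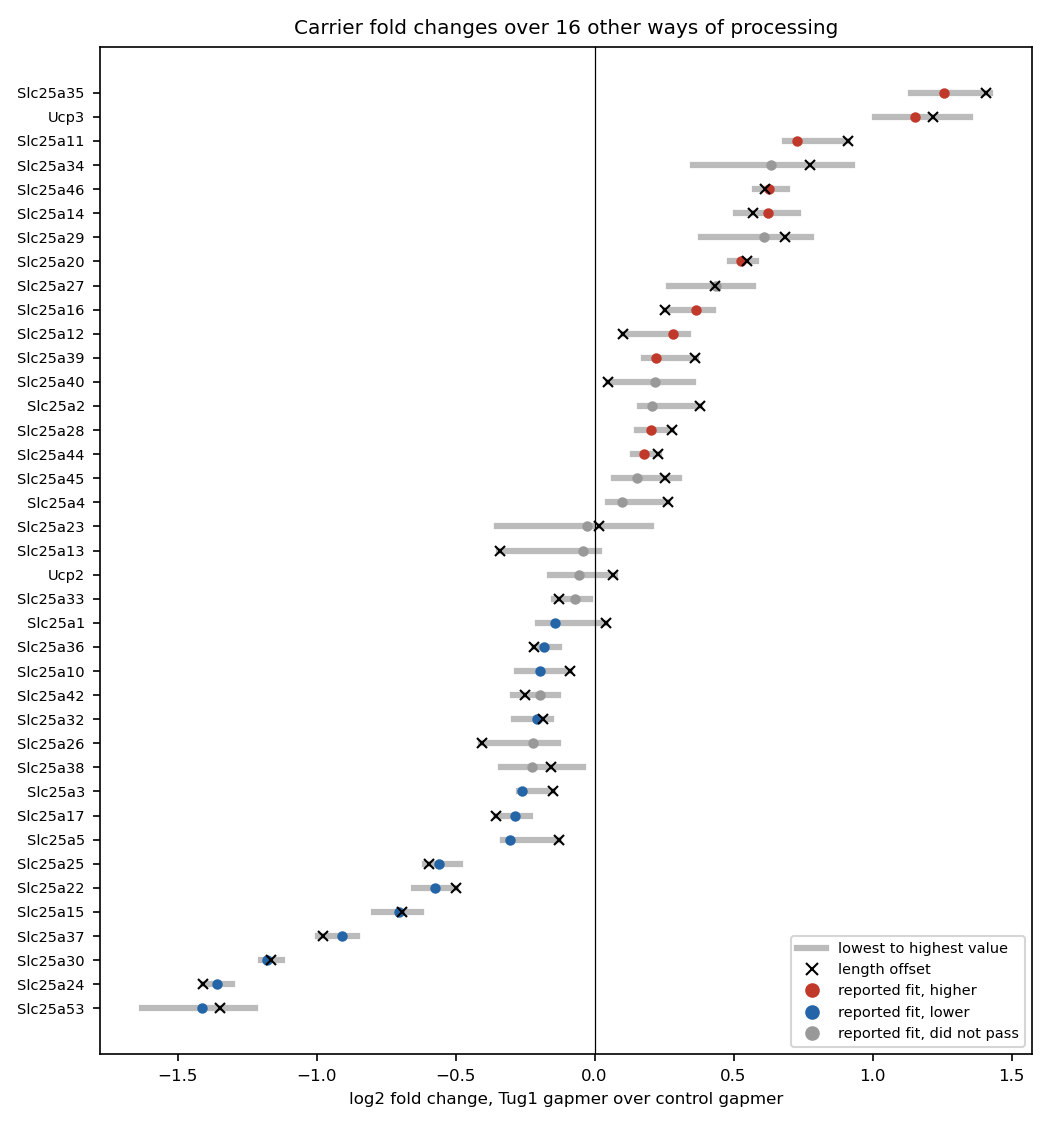
Log2 fold changes of 39 of the 40 tested carriers in the reported fit (coloured points) with the lowest to highest value over the 16 alternatives (grey bars) and the value with the length offset (crosses). Bars of the carriers with the furthest changes stay clear of 0, and those of Slc25a1, Slc25a13, Slc25a23 and Ucp2 cross it.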

How the data were processed

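Poly-A RNA from 6 H9c2 libraries was sequenced; per the labels' protocols, libraries were stranded and made from 500 ng of RNA with an integrity number of at least 9. The submitters' processing notes name FastQC 0.11.7, fastp 0.14.1 and STAR 2.5; the counting tool, build, annotation and use of strand are not given in the sources used here. The deposited values are whole counts of reads for each gene in each library, with 0 unnamed entries and 0 further columns.

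The test was that of edgeR 4.0.16 under R 4.3.3 (minimum count 10, minimum total count 15, TMM factors from 0.979 to 1.02, quasi-likelihood test, two-sided, Benjamini-Hochberg adjustment over all 14216 tested genes). The filter kept 99.8% of the counts. CPM are on the TMM scale, and a standard error is the absolute log2 fold change over the square root of F. Alternatives used DESeq2 1.42.0, limma 3.58.1, other scalings and filters, a stricter threshold of 0.01, a block on replicate number, omission of single libraries, and a lowess offset (span 0.3) on genomic span from the GRCr8 table, which covered 90.3% of tested genes and all 40 tested carriers. Scripts were tested on simulated counts. Each library counted as 1 replicate. Within groups, libraries differed by more than sampling noise (chi-square per degree of freedom 2.15 to 3.55), which does not tell whether they came from separate cultures.

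Members, lists, pairs and motifs were chosen with earlier results of these data known. Values in each library are given for called carriers with a change of 0.4 or more on the log2 scale, tested Ucp genes and the 2 most counted carriers of each group, and partner genes are named as the 3 with the smallest p of each list; other genes named were chosen after their values were seen. Some genes that the counts include are not reported here.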

Additional observations from a re-analysis of the deposited data

How the results depend on the processing

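The count of called carriers was 26 in the reported fit and 22 to 29 when each library was left out in turn; it was 25 with library totals (14 higher, 11 lower, where 4905 of all genes were higher and 3890 lower, against 4383 and 4390), 23 with DESeq2's Wald test, 22 at an adjusted p under 0.01, 28 without a filter (Slc25a41 and Slc25a47 added) and 29 with the length offset. The count over all tested genes ran from 8128 to 8410 with a library left out, against 8773, and that of partner genes from 29 to 35, against 35; Tug1 ran from -2.22 to -2.15. Over 640 combinations of a tested carrier and an alternative, 30 lost a call with the sign kept, 21 gained one and 17 turned sign. Slc25a1, counted among the turns of sign, also lost its call with the length offset, alone or with the replicate block. With library totals the sign turned for Slc25a23 (0.023) and Slc25a13 (0.010). With the length offset it turned for Slc25a23 (0.017), Slc25a1 (0.039) and Ucp2 (0.066), and with the offset and the replicate block they were at 0.011, 0.039 and 0.072. With a library left out, Slc25a13 ranged from -0.15 to 0.016, Slc25a23 from -0.35 to 0.20, Ucp2 from -0.16 to 0.060, the ratio of Slc25a39 to Slc25a40 from -0.16 to 0.16 and that of Slc25a20 to Slc25a29 from -0.23 to 0.12; the last was 0.072 with a pseudocount of 0.5. Apart from fewer libraries, the cause was not tested for any of them. Correlations of deviations between control and knockdown libraries were -0.0053, 0.0298 and 0.027 for like replicate numbers. For unlike numbers they ran from -0.032 to 0.0059. All were near 0, and they do not settle whether replicate numbers paired the libraries. With the replicate block 26 carriers were called, with no carrier's call changed, and the number of genes changed over all tested genes was 8848. Depth limits carriers near 1 CPM, such as Slc25a23, Slc25a34 and Slc25a53.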
